A study of Homo sapiens with 27 samples.

Results

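The 3′ ends of poly(A)+ RNA that map to a block of the long arm of chromosome 19, from 28 to 52 Mb, were lower in A549R than in A549 lung cancer cells. The block was chosen by that measured difference between the lines, so its size is given as a description and carries no test. Its members are the peaks of 3′-end reads on both strands that all 12 cytosol libraries list, after peaks overlapping by at least 1 base on a strand were merged. There were 418 members among 16902 such peaks genome-wide (2.47%), 256 on the plus strand and 162 on the minus strand. Chromosome 19 below 24 Mb, with 433 peaks, served as the reference.

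The study counted RNA 3′ ends in cell lines labelled as non-small cell lung cancer to compare cisplatin with vehicle (DMSO) and cisplatin-resistant with sensitive cells. The 12 cytosol libraries were 3 each of A549 with DMSO, A549 with 100 µM cisplatin, A549R with DMSO and A549R with 100 µM cisplatin. RNA bound to heavy polysomes (messenger RNAs loaded with many ribosomes) was also taken from A549 with DMSO or 100 µM cisplatin, 3 libraries each. Total RNA of H358, another lung cancer line, came from cells given DMSO, 100 µM cisplatin or 100 µM oxaliplatin, again 3 libraries each. All cells grew in the same serum-supplemented medium. The labels name A549R as a line only and do not say how it was made, and it is 1 line. Its derivation is not given in the sources used here, nor is the exposure time to the drugs. Nothing in the labels says that the 3 libraries of a group came from separate cultures, so p-values measure the spread between these libraries, which may be technical.

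A read of 3′-seq marks the place where an RNA was cut and given its poly(A) tail, and a gene can have several such ends, in its last exon or in an intron. Chromosome 19 is among the most gene-dense human chromosomes, and its long arm carries clusters of zinc-finger genes, the ferritin light chain gene FTL and the DNA repair genes ERCC1, ERCC2 and XRCC1. Cisplatin forms adducts and crosslinks on DNA that nucleotide excision repair, in which ERCC1 and ERCC2 act, removes. The deposited lists do not pair peaks with genes and no annotation of their build was used here, so members are named by position, read as hg19 and counted from 1, and none is assigned to a gene.

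The 12 cytosol libraries held between 3024814 and 7564772 counts each. The peaks listed in all 12 held from 1567276 counts (A549R replicate 3 with DMSO) to 4909357 (A549 replicate 2 with cisplatin). The deposited lists are of 2 kinds, and the kind follows the line compared here. The 6 A549R cytosol libraries list 76.0% to 77.5% of the peak numbers they use (long lists), the 6 A549 cytosol libraries 31.6% to 35.2% (short lists). Of the polysome libraries, replicates 1 and 2 of both treatments have long lists and replicates 3 short ones. In H358 the DMSO and cisplatin lists are long and the oxaliplatin lists short. Line and kind of list therefore cannot be told apart in cytosol, and the values that bear on this stand beside the line difference below.

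With DMSO, the members' median difference between A549R and A549 was -0.41 on the log2 scale, a level 0.753 times that of A549. The same median was -0.041 over the reference and -0.012 over all 16902 peaks. With cisplatin it was -0.36 in the block, -0.038 in the reference and 0.0065 over all peaks. The difference lay below 0 in 337 members with DMSO (80.6%) and in 321 with cisplatin (76.8%), against 236 of 433 reference peaks (54.5%) in each treatment. It was below 0 in both treatments in 293 members (70.1%) and above 0 in both in 53 (12.7%). In the reference this held for 170 peaks (39.3%) and 131 peaks (30.3%). Above 52 Mb, 68 of 101 peaks (67.3%) were below 0 in both and 14 (13.9%) above. The quartiles of the members were -0.65 and -0.13 with DMSO and -0.58 and -0.044 with cisplatin. The standard error of a single member was wide against this shift, 0.29 and 0.28 at the median.

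Single members were seldom past the threshold of the test run over all peaks (edgeR's quasi-likelihood test, adjusted p below 0.05). With DMSO, 23 members were called lower and 1 higher, where 0.953% of all peaks were called lower and 0.864% higher. With cisplatin, 18 were called lower and 1 higher, against 0.639% and 0.657% of all peaks. Same-numbered libraries with DMSO were taken as paired. With the replicate number as a block, 62 members were called lower and 12 higher in DMSO, against 2.98% and 2.43% of all peaks. Leaving out 1 of the 12 libraries at a time left 5 to 27 members called lower with DMSO and 1 to 23 with cisplatin. The fewest came without A549R replicate 2 with DMSO and without A549R replicate 1 with cisplatin. The share of all peaks called in those fits was not counted. The rule used these contrasts, so nothing is read from the counts. Of the members called lower, 9 were so in both treatments. So were 1 of the 433 reference peaks and 3 of the 101 peaks above 52 Mb. This was not counted over all peaks. In 61 members (14.6%) all 6 A549R libraries lay below all 6 A549 libraries, as in 2.15% of all peaks, and in 2 members (0.478%) all 6 lay above, as in 1.58% of all peaks. Across the 418 members the differences in the treatments, which share no library, had a Pearson r of 0.70 and a Spearman rho of 0.58. The 433 reference peaks, which showed no such shift, had 0.60 and 0.52. Each is a correlation across peaks, which share libraries and scaling and are not replicates.

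The block was lower along its whole length. All 12 windows of 2 Mb had a negative median in both treatments, from -0.65 to -0.14 with DMSO and from -0.69 to -0.19 with cisplatin. The lowest of each came from the window from 28 to 30 Mb, with 3 members. The 10 block windows with at least 20 members ran from -0.54 to -0.14 with DMSO and from -0.52 to -0.19 with cisplatin. The 10 reference windows with at least 20 peaks had medians from -0.13 to 0.13 with DMSO and from -0.15 to 0.082 with cisplatin. Reference windows of 1 peak each, from 20 to 22 and from 22 to 24 Mb, had 0.36 and -0.35 with DMSO and 0.77 and -0.20 with cisplatin. The window from 30 to 32 Mb, with 12 members, had medians of -0.63 and -0.52, and all 12 members were below 0 in both treatments. The window from 36 to 38 Mb, with 33 members, had -0.54 and -0.52. The shallowest with DMSO, from 40 to 42 Mb with 41 members, had -0.14 and -0.23. In 6 of the 12 windows the median level of every A549R library lay below that of every A549 library, and this held in no reference window. Beyond the block, the 4 windows above 52 Mb were negative too, and the 101 peaks there had medians of -0.33 with DMSO and -0.43 with cisplatin.

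**Figure D1:**
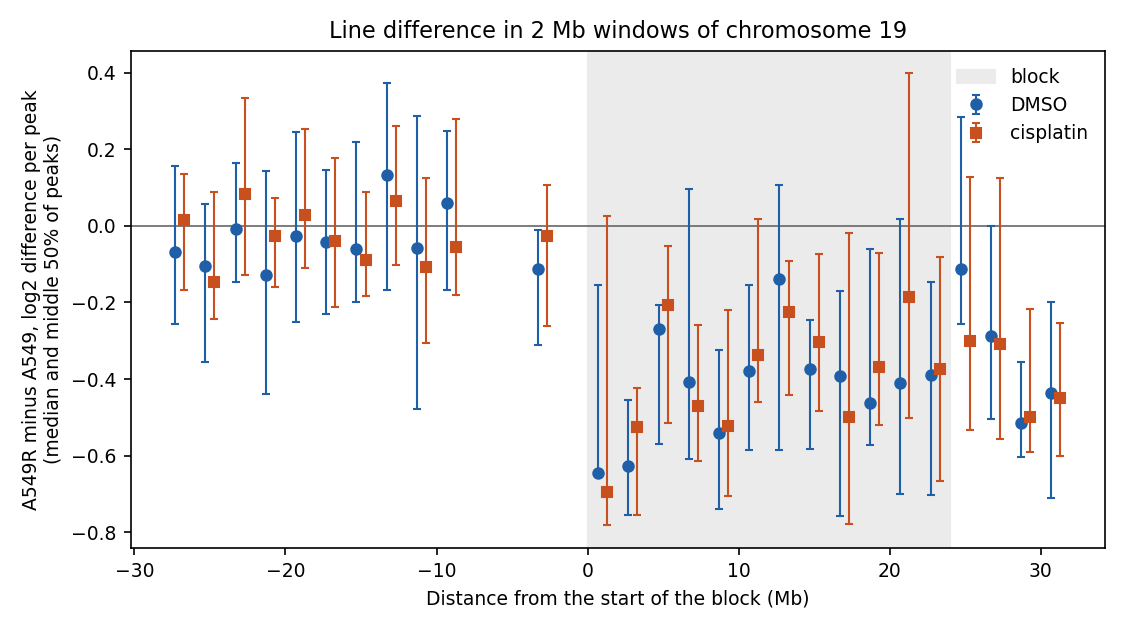
Median A549R minus A549 log2 difference of the peaks in each 2 Mb window of chromosome 19 with at least 3 peaks, against the distance in Mb of the window from the start of the block, with DMSO (circles) and cisplatin (squares); bars span the quartiles of the peaks. The 12 windows of the shaded block lie below 0 in both treatments, and those more than 4 Mb to the left scatter around 0.

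At the lower edge, few peaks were measured and no sharp step could be placed. The 2 outermost members there were chr19:28295709-28295774 on the minus strand, with a line difference of 0.34 ± 0.36 (SE) with DMSO, and chr19:28297470-28297698 on the plus strand, with -0.65 ± 0.39. The nearest measured peaks outside were chr19:24184354-24184838, at -0.28 ± 0.37, and chr19:24186146-24186190, at -0.11 ± 0.23, both on the minus strand. At the upper edge, the outermost members were chr19:51850146-51850322, at -0.26 ± 0.40, and chr19:51870345-51870585, at -0.80 ± 0.30, both on the minus strand. The nearest outside were chr19:52068524-52068552, at -0.037 ± 0.34, and chr19:52104830-52105053, at -0.67 ± 0.23, both on the plus strand. With cisplatin, the lower-edge members had 0.75 and -0.87, and the peaks outside them -0.32 and -0.24. The upper-edge members had -0.066 and 0.027 with cisplatin, and the peaks outside them -0.38 and -0.74. Members and non-members next to the lower edge thus overlapped in both treatments. Next to the upper edge they overlapped with DMSO, and with cisplatin the peaks outside were the lower.

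A block level was computed for each library as the median centred log2 CPM of the members less that of the reference peaks. In A549 it was 0.11, 0.15 and 0.17 with DMSO and 0.15, 0.23 and 0.21 with cisplatin, for replicates 1 to 3. In A549R it was -0.25, -0.21 and -0.21 with DMSO and -0.16, -0.11 and -0.17 with cisplatin. All 6 A549R libraries lay below all 6 of A549. The means differed by -0.36 with DMSO (0.777-fold) and -0.34 with cisplatin (0.789-fold), where the pooled SD between libraries of a group was 0.032. Between libraries of the same number the difference ran from -0.38 to -0.36 with DMSO and from -0.38 to -0.31 with cisplatin.

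Summed counts were likewise lower in A549R. The members took 7.03 ± 0.70% (SD, n = 3) of the counts over all measured peaks in A549 with DMSO, 7.01 ± 0.49% in A549 with cisplatin, 5.07 ± 0.17% in A549R with DMSO and 5.07 ± 0.26% in A549R with cisplatin. The share of the reference was 2.50% to 2.61% in the 4 groups. The counts of the block were 2.81 ± 0.27 times those of the reference in A549 with DMSO and 1.95 ± 0.068 times in A549R with DMSO. One member holds much of this sum, 37.1% of the block's counts in A549 and 27.3% in A549R with DMSO. Without it the ratios were 1.75 ± 0.0087 and 1.42 ± 0.022 with DMSO, and 1.83 ± 0.054 and 1.48 ± 0.026 with cisplatin.

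The kind of list was also compared inside A549, where the short polysome list is 1 library per treatment and always replicate 3, so that kind and replicate coincide. Over the 373 members and 408 reference peaks listed in all 18 cytosol and polysome libraries, the A549R minus A549 difference of the block against the reference was -0.40 with DMSO and -0.35 with cisplatin. Within A549 polysomes, long lists less the short list gave -0.095 with DMSO and -0.17 with cisplatin. When only long lists were set side by side, A549R cytosol less A549 polysomes gave -0.058 with DMSO and -0.20 with cisplatin. Among short lists, A549 polysomes less A549 cytosol gave -0.15 in each treatment. The last 2 comparisons also cross from cytosol to polysomes. In H358, over the members listed in all 27 libraries, the block level averaged -0.24 in the short oxaliplatin lists. It was -0.19 in the long cisplatin lists and -0.40 in the long DMSO lists. Only the oxaliplatin lists are short there, so drug and kind of list cannot be told apart in these values. The part of the kind of list in the line difference was not tested.

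Polysome and H358 libraries did not enter the choice of the block, and H358 with DMSO stood lowest of all. On a scale of the 275 members and 330 reference peaks listed in all 27 libraries, the block level averaged 0.24 in A549 cytosol and -0.16 in A549R cytosol with DMSO. In A549 polysomes with DMSO it was 0.013 and -0.018 in the long lists and 0.099 in the short list. In H358 it was -0.43, -0.37 and -0.42 with DMSO, below every A549R library. H358 libraries with cisplatin stood at -0.26, -0.14 and -0.18, and those with oxaliplatin at -0.32, -0.12 and -0.27.

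**Figure D2:**
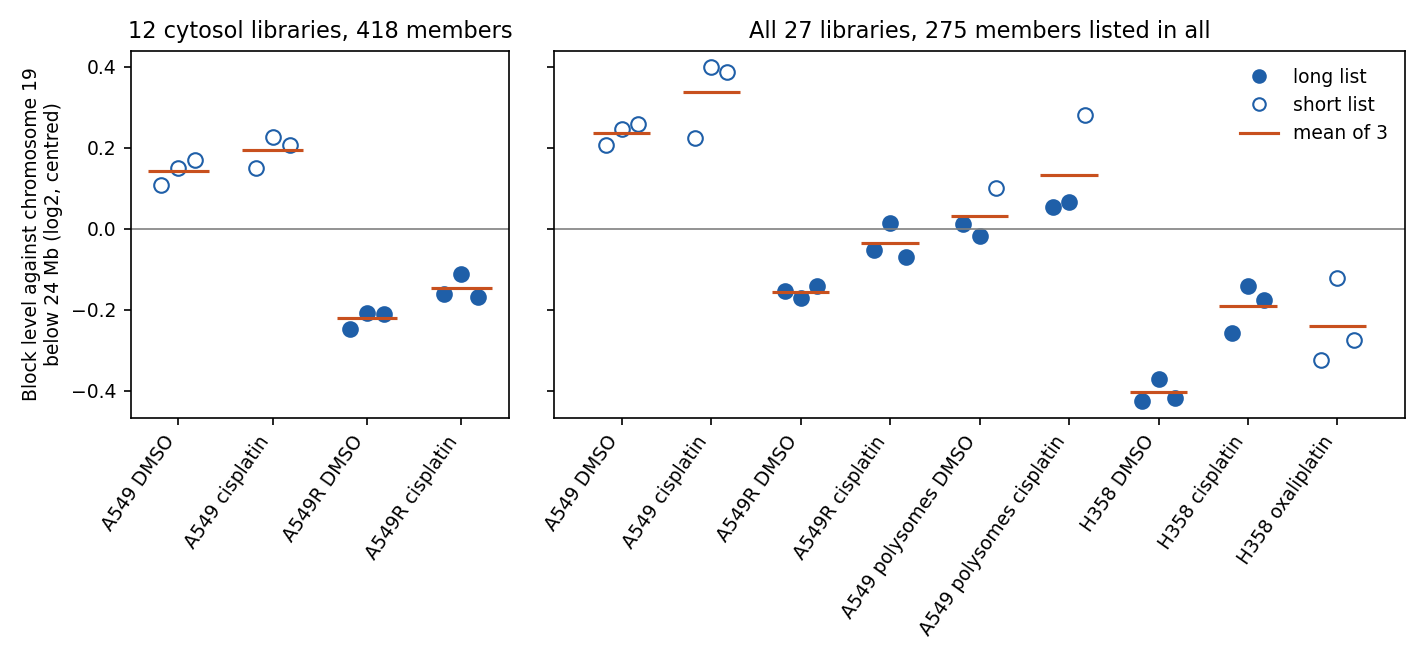
Block level of each library (median centred log2 CPM of members less that of chromosome 19 peaks below 24 Mb) by group, over the 418 members in the 12 cytosol libraries (left) and over the 275 members listed in all 27 libraries (right). Filled circles are libraries with long lists, open circles those with short lists, and lines are means of 3; the A549R libraries lie below the A549 cytosol libraries, and the H358 DMSO libraries are the lowest.

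The strongest ends of the block were mostly lower in A549R. The 8 members with the highest mean level took 53.5% of the block's counts. The highest was chr19:49469530-49470268 on the plus strand. It stood at 29148, 30426 and 19243 CPM in A549 with DMSO and at 23687, 28394 and 20150 with cisplatin. In A549R it stood at 11609, 13688 and 14342 CPM with DMSO and at 7866, 14764 and 14322 with cisplatin. No A549R library reached the lowest A549 library, and the log2 difference was -0.99 ± 0.24 (SE) with DMSO and -0.97 ± 0.24 with cisplatin.

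The next in level, chr19:39923750-39924211 on the minus strand, averaged 2792 CPM with differences of -0.43 ± 0.15 and -0.34 ± 0.15. The lines did not overlap with DMSO, but with cisplatin A549R replicate 2, at 3058 CPM, stood among the A549 libraries. The end chr19:42375322-42375687 on the plus strand, at 2766 CPM, differed by -0.41 and -0.43, and its lines did not overlap within either treatment. The plus-strand ends chr19:49994936-49995682 and chr19:50002766-50003003 lie within 10 kb of each other. The first averaged 2190 CPM and differed by -0.49 with DMSO and -0.34 with cisplatin, with no overlap within a treatment. The second stood at 2916, 2690 and 2643 CPM in A549 and at 1884, 1841 and 1629 in A549R with DMSO, a difference of -0.62 ± 0.13, and all 6 A549R libraries were below all 6 A549 libraries. The end chr19:49118576-49118739 on the minus strand, at 1685 CPM, differed by -0.28 and -0.31.

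Not every strong end was lower. The plus-strand end chr19:46005331-46005815 stood at 1016, 933 and 1052 CPM in A549 and at 998, 1077 and 1217 in A549R with DMSO. These libraries overlapped, and the differences were 0.13 ± 0.15 with DMSO and -0.026 ± 0.15 with cisplatin. The minus-strand end chr19:40953595-40953963 was higher in A549R in both treatments, by 0.50 ± 0.25 and 0.60 ± 0.25, but by -0.13 and -0.021 when scaled to the whole deposited list. Its libraries overlapped under DMSO and not under cisplatin.

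A small number of members differed far more than the block as a whole. At chr19:49102398-49102689 on the plus strand, A549 held 95.2, 97.3 and 52.6 CPM and A549R 5.14, 2.43 and 10.8 CPM with DMSO. With cisplatin A549 held 73.5, 35.2 and 16.3 CPM and A549R 4.35, 3.51 and 14.2 CPM. The lines did not overlap, and the differences were -3.93 ± 0.63 with DMSO and -2.54 ± 0.59 with cisplatin. At chr19:45324443-45324684 on the plus strand, A549 held 63.3, 37.9 and 114 CPM and A549R 7.37, 4.85 and 12.1 CPM with DMSO, a difference of -3.23 ± 0.44. With cisplatin that difference was -2.39 ± 0.40, and again no A549R library reached an A549 library. A549 polysomes with DMSO held 91.6, 88.9 and 106 CPM at this end. With cisplatin this end fell in H358, by 1.34 ± 0.34 on the log2 scale (adjusted p 0.00713, edgeR).

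The other 4 of the 6 members furthest below 0 also had all A549R libraries below all A549 libraries. They were chr19:50029324-50029597 on the plus strand (-1.47 with DMSO, -1.96 with cisplatin) and chr19:49468592-49468787 on the minus strand (-1.38 and -1.43). The others were chr19:40315981-40316153 on the minus strand (-0.95 and -1.84) and chr19:45392119-45392485 on the plus strand (-1.72 and -0.91). The minus-strand end at 49468592 lies next to the strongest member, on the opposite strand. In all, 7 members were below -1 in both treatments.

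Among the members called lower in both treatments, 6 lay outside those furthest below 0. They were chr19:38795474-38795822 on the plus strand (-0.89 and -0.89, mean 800 CPM), chr19:39306055-39306365 on the minus strand (-0.99 and -0.71), and chr19:44111601-44111960 on the minus strand (-0.89 and -0.88). The rest were chr19:50310102-50310311 on the minus strand (-1.51 and -1.11), chr19:50436765-50437198 on the plus strand (-0.9992 and -1.21) and chr19:50885878-50886291 on the plus strand (-0.84 and -0.91). These 6 were singled out after their values were seen.

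In 2 members all 6 A549R libraries lay above all 6 A549 libraries, and 1 of them was called. At chr19:39514657-39515073 on the minus strand, A549 held 1.09, 1.43 and 1.72 CPM and A549R 10.3, 9.22 and 15.2 CPM with DMSO. With cisplatin A549 held 2.53, 1.85 and 1.96 CPM and A549R 6.18, 7.55 and 5.87 CPM. All 6 A549R libraries were above all 6 A549 libraries, with differences of 2.99 ± 0.32 and 1.62 ± 0.31. It was the 1 member called higher in each treatment. Its A549 levels with DMSO lie near the smallest count that a list holds (5), so the size of the difference is uncertain.

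The median was below 0 in every split of the members by strand, level or width. Plus-strand members had medians of -0.41 with DMSO and -0.40 with cisplatin, and minus-strand members -0.39 and -0.25. Members were split in 3 by level. The 139 lowest, with a median of 6.32 CPM, had medians of -0.31 with DMSO and -0.19 with cisplatin. The 139 in the middle had -0.44 and -0.41, and the 140 highest, with a median of 109 CPM, -0.44 and -0.39. The 139 narrowest, 20 to 213 bases wide, had -0.36 and -0.24, and the 140 widest, 365 to 1647 bases, had -0.46 and -0.42. The 322 members that every library lists as 1 unbroken peak had -0.38 and -0.33, and the 96 that some library lists in pieces had -0.48 and -0.43. Reference peaks cut the same ways had medians between -0.075 and 0.022.

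Members close together on a strand were nearer in value than distant ones, more so with DMSO than with cisplatin. On a strand, 101 neighbouring pairs lay at most 5 kb apart, and their DMSO line differences were 0.26 apart at the median, against 0.43 for the 159 pairs more than 50 kb apart. With cisplatin these values were 0.31 and 0.37. The 156 pairs over 5 and up to 50 kb apart had 0.38 with DMSO and 0.32 with cisplatin, the latter near the value of the close pairs. Ends within 5 kb can belong to 1 transcript unit, so neighbouring members are not independent of each other. Of the close pairs, both ends were lower in both treatments in 65 (64.4%), and of the distant pairs in 78 (49.1%).

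Members far above 0 mostly lay in runs of narrow ends. Of the 9 members above 1 in both treatments, 7 lay in 2 runs of short peaks, chosen after their values were seen. The first run holds 10 ends on the plus strand, 110 to 139 bases wide, between 48410937 and 48459054, their starts 5014 to 5389 bases apart. The second holds 12 ends on the minus strand, 104 to 134 bases wide, between 50595748 and 50643576, with starts 1085 to 5372 bases apart (median 5348) and less even in spacing than the first. Ends so alike in width may be near-identical copies, among which short reads could be split, so the level of any 1 of them is uncertain.

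The first run has 9 members and the second 3. At chr19:48442799-48442914 on the plus strand, A549 held 20.2, 23.5 and 76.6 CPM and A549R 44.4, 55.3 and 370 CPM with DMSO. With cisplatin A549 held 19.9, 20.4 and 47.4 CPM and A549R 34.1, 54.5 and 199 CPM. Replicate 3 was the highest of its group in all 4 groups, and the lines overlapped. The difference with DMSO was 1.96 ± 0.81, and 0.34 without replicate 3 of A549R with DMSO. The same held at 48416306, 48432051 and 48458940, which had 1.88, 2.04 and 1.99 in all libraries and 0.39, 0.26 and 0.46 without that library. The minus-strand end chr19:49534929-49535042, outside the runs, had 1.60 in all libraries and 0.30 without it.

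Without pairing, no member of the runs was called between the lines. With the replicate number as a block, 7 of the 12 were called higher in A549R with DMSO, by 0.94 to 1.61 (adjusted p 0.00443 to 0.0483, edgeR), and these include the 4 plus-strand ends just named. The end at 49534929 was called in that fit too, at 1.33 (adjusted p 0.0239). The rule used this contrast, so nothing is read from the calls. Without the 12, the block's median was -0.43 with DMSO and -0.37 with cisplatin.

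**Figure D3:**
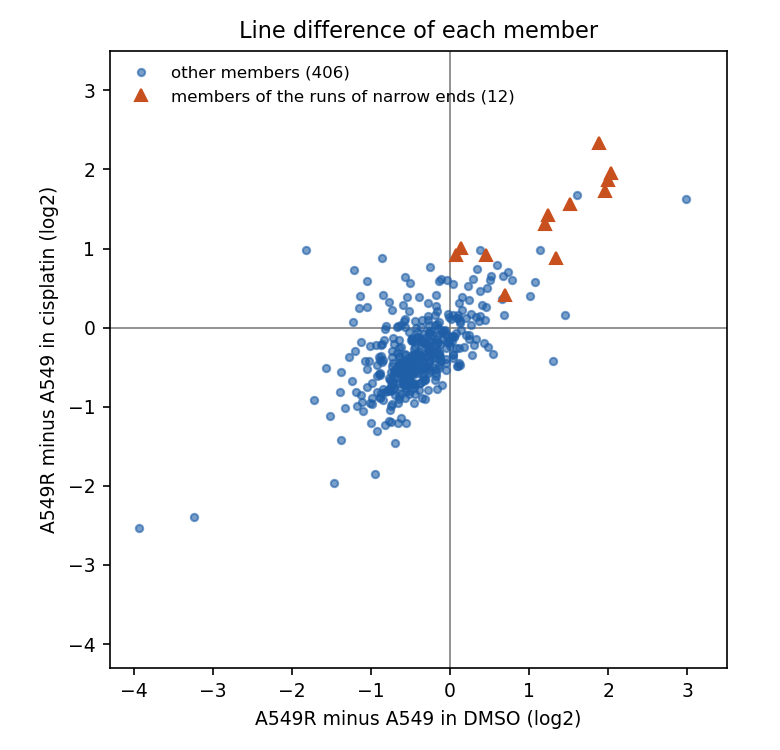
A549R minus A549 log2 difference of each of the 418 members with DMSO (x axis) and with cisplatin (y axis), with the 12 members of the runs of narrow ends as triangles and the 406 others as circles. Of the members, 293 lie below 0 on both axes, and all triangles lie above 0 on both.

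Members are listed in all 12 libraries, so ends that dropped below listing are not among them. Of the 547 merged peaks of the block that all 6 A549 libraries list, 129 (23.6%) were missing from at least 1 A549R list, the longer kind. The share was 76 of 509 (14.9%) in the reference and 26.4% on the other chromosomes. Only 5 such peaks of the block were missing from every A549R library. Another 83 merged peaks of the block were listed in 11 of the 12 libraries. The filter also excludes peaks absent from A549. Of the 781 merged peaks of the block that all 6 A549R libraries list, 315 were in no A549 list, the shorter kind. In the reference this held for 325 of 797.

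The cisplatin contrasts were not used to choose the members and were tested. In A549 cytosol, 20 of 418 members rose (4.78%) and 10 fell (2.39%) with cisplatin, where 3.12% of all peaks rose and 4.03% fell (edgeR). In A549R cytosol, 15 rose (3.59%) and 3 fell (0.718%), against 2.32% and 2.2% of all peaks. The block's median change was 0.094 in A549 and 0.13 in A549R, and that of the reference 0.057 and 0.066. Same-numbered libraries were taken as paired within each line. With the replicate number as a block, 34 members rose and 20 fell in A549 (5.22% and 6.81% of all peaks) and 29 rose and 9 fell in A549R (4.67% and 4.77%). The counts moved with single libraries, and the share of all peaks called in those fits was not counted. In A549, 11 members rose without replicate 1 or without replicate 2 of DMSO, 10 without replicate 3 of cisplatin and 31 without replicate 1 of cisplatin, and 2 to 13 fell as 1 of the 12 libraries was left out. In A549R, 6 rose without replicate 1 or 2 of DMSO, 8 without replicate 1 or 2 of cisplatin, 25 without replicate 3 of cisplatin and 23 without replicate 3 of A549 with cisplatin, and 0 to 6 fell.

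The steepest rise in both lines was at chr19:40928349-40928894 on the minus strand. A549 went from 19.3, 19.8 and 35.1 CPM with DMSO to 104, 171 and 303 with cisplatin. A549R went from 22.1, 28.4 and 24.8 to 149, 207 and 85.3 CPM. Neither line's treatments overlapped, and the log2 change was 2.97 ± 0.40 in A549 (adjusted p 0.000928, edgeR) and 2.55 ± 0.39 in A549R (adjusted p 0.00279).

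At chr19:49464611-49465070 on the plus strand the levels were higher and the replicates tighter. A549 went from 313, 285 and 320 CPM to 775, 774 and 839, and A549R from 179, 193 and 217 to 668, 513 and 659. The change was 1.38 ± 0.15 (adjusted p 0.000198, edgeR) and 1.64 ± 0.15 (adjusted p 8.85e-05). Its line difference was -0.64 ± 0.15 with DMSO and -0.38 ± 0.15 with cisplatin, and it lies within 5 kb of the strongest member of the block on the same strand. The strongest member itself changed by -0.13 ± 0.23 in A549 and -0.10 ± 0.23 in A549R, and was not called.

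Further ends rose in both lines. At chr19:43979249-43979668 on the minus strand, A549 went from 5.00, 5.51 and 6.19 CPM to 18.8, 27.2 and 33.3, and A549R from 6.70, 10.7 and 3.81 to 27.7, 37.5 and 19.5. Its changes were 2.25 ± 0.34 and 1.91 ± 0.34. The plus-strand end chr19:30166081-30166404, in the thinly filled first part of the block, rose by 2.00 ± 0.34 and 1.73 ± 0.37. The plus-strand end chr19:36370369-36370708 rose by 1.52 ± 0.37 and 1.51 ± 0.39. Of the 20 members that rose in A549, 10 also rose in A549R, where they made 66.7% of the 15. All 20 had a change above 0 in A549R, where 38.5% of the 418 members had a change below 0. The overlap of these calls over all peaks was not counted.

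Some members passed the threshold in a single line. The plus-strand ends chr19:47548804-47549053 and chr19:41246437-41246768 rose in A549 by 2.07 ± 0.33 and 1.63 ± 0.35, and had changes of 1.20 and 1.26 in A549R that missed the threshold (adjusted p 0.0526 and 0.0577, edgeR). The minus-strand ends chr19:38701642-38701950 and chr19:38702315-38702516 lie side by side. The second rose in A549 by 2.57 ± 0.47, with 0.85 ± 0.44 in A549R, and the first rose in A549R by 2.08 ± 0.47, with 1.56 ± 0.46 in A549. No member was called in the difference between the lines' responses (edgeR, 0 of 418, with 10 at an unadjusted p under 0.05), nor was any of the 16902 peaks, of which 320 had such a p. DESeq2 and the fit with the replicate block called 0 members too. At the median member, leaving out differences near 0, the 95% interval of that difference reached 0.79 to each side on the log2 scale.

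Among members that fell, chr19:34892920-34893389 on the plus strand fell in both lines. A549 went from 159, 165 and 144 CPM to 71.3, 66.1 and 54.6, and A549R from 82.2, 75.9 and 96.5 to 43.3, 27.5 and 56.3. The change was -1.29 ± 0.22 (adjusted p 0.00461, edgeR) and -0.9996 ± 0.23 (adjusted p 0.024, lost in 5 of 12 fits that left out 1 library). The plus-strand end chr19:39220050-39221182, at 933 CPM on average, fell by 0.77 and 0.62 on the log2 scale, and chr19:50193611-50193835 on the plus strand fell by 1.19 and 1.43. In A549 the minus-strand ends at 33424387, 33369905, 48835609 and 33877852 passed the threshold, with changes of -1.71, -1.45, -1.39 and -1.21. In A549R these had -0.94, -0.44, -0.75 and -0.72 and were not called. All 10 members that fell in A549 had a change below 0 in A549R, as had 38.5% of the 418 members. Of the members named here, the calls at 40928349, 38702315, 43979249, 47548804, 30166081, 33424387 and 34892920 in A549, and at 40928349, 43979249 and 49464611 in A549R, held in all 12 fits that left out 1 library. The call at 41246437 was lost without replicate 3 of A549 with cisplatin. At 50193611 the call was lost in 8 of the 12 fits in A549 and in 6 in A549R, at 36370369 in 6 in A549R and at 39220050 in 8 in A549R.

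**Figure D4:**
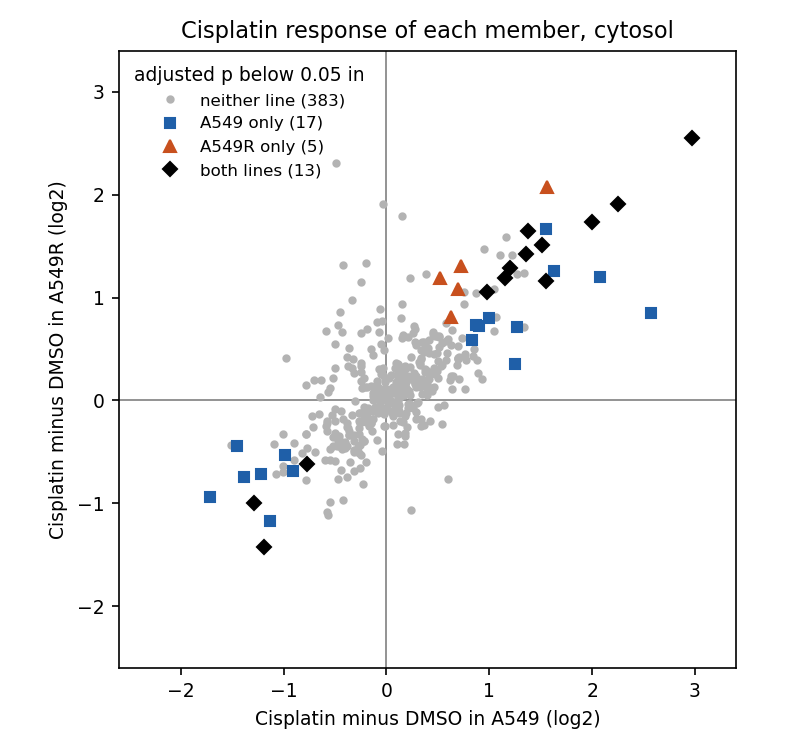
Cisplatin minus DMSO log2 change of each of the 418 members in A549 (x axis) and A549R (y axis) cytosol, with members past the adjusted threshold in both lines (13, diamonds), in A549 (17, squares), in A549R (5, triangles) or in neither (383, grey). Members called in A549 have a change of the same sign in A549R, and none was called in the difference between the lines.

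As a whole, the block level was slightly higher with cisplatin than with DMSO. It was higher by 0.053 in A549 and by 0.074 in A549R, and every cisplatin library stood above the DMSO library of its number, by 0.038 to 0.078 in A549 and by 0.042 to 0.095 in A549R. On the scale of all 27 libraries the cisplatin mean was higher by 0.099 in A549 cytosol, 0.12 in A549R cytosol, 0.10 in A549 polysomes and 0.21 in H358. There too every pair of the same number was higher with cisplatin in A549 cytosol, A549R cytosol and A549 polysomes. In A549R and H358 every cisplatin library was above every DMSO library. These are descriptions of a level taken over chosen members and carry no test.

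In A549 heavy polysomes, 373 members were listed in all 6 libraries. Of these, 7 rose (1.88%) and 1 fell (0.268%) with cisplatin, where 0.482% and 0.35% of 22004 peaks did (edgeR). All 7 had also risen in A549 cytosol, where they made 35% of the 20 and where 4.78% of the members rose. The libraries of the fractions are separate, but the labels do not say whether they came from separate cultures. The overlap over all peaks was not counted. The end at 40928349 stood at 7.02, 9.31 and 18.1 CPM with DMSO and at 51.8, 58.6 and 207 with cisplatin, a change of 3.21 ± 0.59 (adjusted p 0.0461, edgeR). The end at 43979249 rose by 2.37 ± 0.27, that at 38702315 by 2.07 ± 0.37 and that at 49464611 by 1.22 ± 0.19. The 1 that fell was that at 34892920, from 552, 581 and 522 CPM to 251, 267 and 180, a change of -1.25 ± 0.20 (adjusted p 0.0294, edgeR).

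Same-numbered polysome libraries were taken as paired, and with the replicate block 32 members rose and 12 fell, against 4.52% and 5.16% of all peaks. The block there also separates the long from the short lists. Leaving out any 1 of the 6 polysome libraries left 0 to 3 members risen and 0 to 2 fallen, with 0 risen without replicate 1 or 2 of DMSO. No polysome call named here held in all 6 such fits, and the share of all peaks called in them was not counted.

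In H358 total RNA, 299 members were listed in all 9 libraries, and the calls were more numerous. There 59 rose (19.7%) and 28 fell (9.36%), against 11.4% and 13.8% of 13895 peaks (edgeR). In the reference, 34 of 338 rose (10.1%) and 76 fell (22.5%). Without the 12 members of the runs of narrow ends, 47 of 287 rose (16.4%) and 28 fell (9.76%). The median change was 0.038 in the block, -0.18 in the reference and -0.040 over all peaks. Without replicate 1 of DMSO 15 members fell, and without replicate 2 of cisplatin 17. The share of all peaks that fell in those 2 fits was not counted.

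The 3 steepest rises in H358 were all in the plus-strand run of narrow ends. At chr19:48427037-48427155 the levels were 34.6, 39.0 and 42.5 CPM with DMSO, 606.6, 954 and 769 with cisplatin and 52.1, 68.1 and 48.4 with oxaliplatin. The cisplatin change was 4.33 ± 0.26 (adjusted p 1.45e-09, edgeR). The ends at 48437440 and 48410937 rose by 3.93 ± 0.25 and 3.68 ± 0.27. All 10 ends of this run rose with cisplatin, by 2.03 to 4.33, and so did all 12 of the minus-strand run, by 2.01 to 4.14. In A549 and A549R cytosol no member of either run was called with cisplatin.

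The strongest member of the block, 49469530, rose with cisplatin in H358. It went from 1270, 996 and 1346 CPM to 2470, 3245 and 3280, a change of 1.32 ± 0.22 (adjusted p 0.000215, edgeR), while the oxaliplatin libraries held 1128, 1112 and 1412 CPM. The end at 46005331 also rose, by 1.12 ± 0.28, and that at 40928349 by 2.33 ± 0.24. The steepest fall was at chr19:49133814-49134154 on the minus strand, from 56.8, 41.0 and 33.5 CPM to 5.61, 3.29 and 3.42, a change of -3.34 ± 0.37 (adjusted p 2.01e-06, edgeR). Oxaliplatin libraries held 27.4, 13.7 and 18.5 CPM there. The plus-strand end chr19:49426169-49426610 fell by 1.80 ± 0.33 on the log2 scale and the minus-strand end chr19:33087904-33088110 by 1.67 ± 0.33.

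Some members called in A549 cytosol were called in H358 as well. Of the 17 members that rose in A549 cytosol and were measured in H358, 5 rose there (29.4%), which is 8.47% of the 59. In H358, 19.7% of the 299 measured members and 11.4% of all peaks rose. A change above 0 in H358 was seen in 13 of the 17, where 47.8% of the 299 measured members had a change below 0. The overlap of the calls of A549 and H358 over all peaks was not counted. All 3 that fell in A549 and were measured in H358 fell there too, where 9.36% of members and 13.8% of all peaks fell. The end at 40928349 rose in A549 cytosol, A549R cytosol, A549 polysomes and H358, and the end at 34892920 fell in all 4. These are bulk libraries, in which fewer cells making an RNA and less of it per cell cannot be told apart.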

How the data were processed

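Peaks of 3′-seq reads were deposited as 1 list per library, and each peak carries a whole-number read count that the authors deposited without normalization (smallest 5). Per the submitters' processing notes, Bowtie2 2.2.5, SAMtools 1.1 and bedtools 2.17.0 were used and the build was mm9. Positions, however, run to 249237867 on chromosome 1 and 51239739 on chromosome 22, so they were read as hg19. How peaks were called and filtered was not stated. Peaks of the 12 cytosol lists were merged by 1 base of overlap on a strand and their counts summed. Peaks listed in all 12 were fitted with edgeR 4.0.16 (TMM, quasi-likelihood, 4 groups, Benjamini-Hochberg over all peaks, threshold 0.05). Polysome and H358 libraries were counted over the same merged peaks and fitted apart, over those listed in all of theirs. DESeq2 1.42.0 was an alternative. CPM are TMM-scaled. Totals of 3024814 to 11997535 counts per library limit the precision of weak ends.

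In simulated counts of the cisplatin comparison in A549 cytosol (16902 peaks), edgeR recovered 21% of peaks changed by 1 and 97% of those changed by 2 on the log2 scale. The members and lists were chosen with earlier results of these data known. Members named are the 8 with the highest mean CPM, the 6 lowest and 6 highest in mean line difference, up to 6 in each direction with the largest called cisplatin change per cytosol line (up to 3 in polysomes and H358), and the 2 on each side of an edge. A permutation test planned for the block level is not given, since that level is a score over chosen members. Deviations from the group means correlated between same-numbered libraries in every pair for A549 (0.30 to 0.47), A549R (0.13 to 0.29), the lines with DMSO (0.12 to 0.21) and polysomes (0.40 to 0.49), and these were taken as paired. Alternatives were other scalings, a CPM minimum, unbroken peaks, 50 bases of overlap, other limits and references, single strands, the replicate block and leaving out each library.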

Additional observations from a re-analysis of the deposited data

How the results depend on the processing

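The median shift of the block between the lines stayed below 0 under every alternative run. Scaled to the total of measured peaks it was -0.33 with DMSO and -0.31 with cisplatin, and 13 members were called lower with DMSO. Scaled to the whole deposited list it was -1.05 and -0.98, with 291 and 272 members called lower, but the median of all peaks then moved to -0.65 and -0.62, and the difference at 46005331 with DMSO became -0.52. Over unbroken peaks it was -0.37 and -0.30, and -0.33 with DMSO against the reference, with 15 and 11 members lower, 0 higher in each treatment, and 6 fallen in A549 and 1 in A549R with cisplatin. Plus-strand members gave -0.40 with cisplatin, also against the plus-strand reference. Minus-strand members gave -0.25 with cisplatin, and against their reference -0.32 with DMSO and -0.18 with cisplatin. Against all peaks outside chromosome 19 the shift was -0.41 and -0.37. With a mean CPM of at least 5 it was -0.40 with DMSO against the reference, and 5 members fell in A549R. The share of all peaks called was not counted under these alternatives, so nothing is read from their counts.

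DESeq2 called 51 members lower and 2 higher with DMSO and 38 lower with cisplatin. It called 23 risen and 7 fallen in A549R and 16 risen and 5 fallen in polysomes. With the replicate block, 62 members were lower and 12 higher between the lines with DMSO, and 46 lower and 11 higher with cisplatin. That block also raised the calls over all peaks, with DMSO from 0.953% to 2.98% lower and from 0.864% to 2.43% higher. In the same blocked fits 34 rose and 20 fell in A549, and 29 rose and 9 fell in A549R. In polysomes 32 rose and 12 fell, and in H358 72 rose and 49 fell. The share of all peaks was not counted for DESeq2, nor for the blocked fits of the lines with cisplatin and of H358. Nothing is read from those counts. For same-numbered libraries of the lines with cisplatin (correlations -0.0044 to 0.19) and of H358 (-0.10 to 0.28), not every pair correlated above 0. They were not taken as paired, so the block is given for them here alone. Differently numbered cytosol libraries correlated at -0.36 to 0.14. The pairing is thus read from the values, and the titles give a number only.

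Leaving out 1 library at a time gave a shift of -0.44 to -0.36 with DMSO and -0.39 to -0.27 with cisplatin, and against the reference -0.41 to -0.35 and -0.36 to -0.29. Members called lower ran from 5 to 27 with DMSO and 1 to 23 with cisplatin, and higher from 1 to 3 and 0 to 1. With cisplatin, 10 to 31 rose and 2 to 13 fell in A549, 6 to 25 rose and 0 to 6 fell in A549R, 0 to 3 rose and 0 to 2 fell in polysomes, and 47 to 62 rose and 15 to 32 fell in H358. Where these values moved, the cause was not tested, and the share of all peaks called in these fits was not counted. Of 1471 values of named members under alternatives, 1294 kept direction and side of the threshold, 118 lost and 42 gained a call, and 17 changed sign, 11 of them as 1 library was left out and 6 under another scaling. Scaled to the whole deposited list, 40953595 stood at -0.13 with DMSO and -0.021 with cisplatin, 28295709 at -0.29 with DMSO and 51870345 at -0.61 with cisplatin. Scaled to the total of measured peaks, 46005331 stood at 0.016 with cisplatin. As 1 library was left out, 46005331 ran from -0.14 to 0.061 and 51870345 from -0.095 to 0.25 with cisplatin, and 51850146 from -0.62 to 0.034 with DMSO and from -0.31 to 0.10 with cisplatin.

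Peaks with fewer than 5 counts in a library are not listed there, so weak ends are missing from the members. Recovery of small changes was low: in simulated data, changes of 1 on the log2 scale were called in 21% of peaks in A549 cytosol, 11% in polysomes and 31% in H358.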
